A study of Equus caballus with 8 samples.

Results

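The genes of the smooth muscle contractile apparatus were examined in equine BM-MSCs, mesenchymal stem cells grown from bone marrow by their adherence to culture plastic. The 10 genes, ACTA2, ACTG2, TAGLN, CNN1, TPM1, TPM2, CALD1, MYL9, LMOD1 and MYH11, were chosen by name, and all 10 were among the 15266 named genes measured. RNA was sequenced from the BM-MSCs of 4 horses, labelled D, J, L and W. The marrow of each horse was divided, and 1 culture was left untreated while the other received 1 ng/ml human recombinant TGF-β2, a growth factor of the transforming growth factor family. All cultures, the untreated ones included, were primary cells in low-glucose DMEM with 10% fetal bovine serum and antibiotics, and the study's methods add basic fibroblast growth factor to this medium. The sample labels place the treatment from isolation to passage 3 or 4, whereas the methods give 3 passages. The donors were adult horses, Thoroughbreds or Thoroughbred crosses. Each horse gave 1 library per group, so that the comparison was made over 4 untreated and 4 treated libraries, paired by horse. In such bulk cultures, more cells of a type and more RNA per cell cannot be told apart.

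Smooth muscle contracts when myosin II pulls on actin filaments. The filaments hold actin isoforms typical of smooth muscle and are coated by tropomyosins, caldesmon, calponin and transgelin, and force starts when myosin light chain kinase phosphorylates the regulatory light chain. Many of these genes are switched on by serum response factor (SRF) together with its coactivators myocardin and the myocardin-related factors, and TGF-β is a known inducer of several of them in fibroblasts, where their expression marks the contractile myofibroblast.

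Between 39184554 and 57228675 reads were recovered per library from the deposited normalized counts, which are read counts divided by a size factor per library. A floor of 3 reads equalled 2.02 to 3.60 normalized counts, and it covers counting error only. The least covered of the 10 genes, MYH11, had at least 162 reads in each library. FN1, COL1A1 and COL1A2, 3 genes of the extracellular matrix, made up 0.881% to 6.27% of the reads in untreated and 10.3% to 14.4% in treated libraries. The surface markers of MSCs ITGB1, CD44, THY1, ENG and NT5E were present in all libraries. Of these 5, THY1 alone was called, lower, with 100212 normalized counts on average in untreated and 19854 in treated libraries (adjusted p from limma 0.00203). Over all genes tested, 7.31% were called lower. The log2 fold change was 0.91 for ITGB1, 0.43 for CD44, -0.42 for ENG and -0.077 for NT5E. The 8 leukocyte markers did not run together in the untreated library of horse J. Their summed level there was 2787 normalized counts against 519 to 1162 in the other untreated and 393 to 726 in the treated libraries. CD68, a lysosomal gene of macrophages that other cells also express, made up 2437 of it. CD3E, a T cell gene that was at 0 in 6 of the libraries, had 112 normalized counts there, and PTPRC, the leukocyte common antigen, had 110 against 1.74 to 41.5 in the other untreated libraries. The myeloid genes CSF1R, SPI1 and CD163 were at 1.35, 1.35 and 0 in that library, at or below the other untreated libraries except for SPI1 in D.

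TGF-β2-treated BM-MSCs carried more contractile gene RNA than untreated cells of the same horse. The 10 genes together took 0.704%, 0.563%, 1.02% and 1.39% of the reads in the untreated libraries of horses D, J, L and W, and 1.91%, 1.38%, 2.65% and 2.76% in the treated ones. The share was higher after treatment in each horse, and the groups overlapped only in that the untreated library of W lay barely above the treated library of J. Of the 10 genes, 6 were called higher and 0 lower, a call being an adjusted p under 0.05 together with a change of more than 1 on the log2 scale. The called genes were ACTG2, CNN1, ACTA2, TPM1, TAGLN and TPM2. MYH11 alone had a negative fold change, with an unadjusted p from limma of 0.840, and edgeR and DESeq2 likewise called 0 of the 10 lower. The test was limma on log2(normalized count + 1) with the horse as a block, fitted to the 14907 genes that passed a filter on low values and adjusted over all of them by the Benjamini-Hochberg method. All 10 genes passed this filter. Over all genes tested, 14.1% were called, 6.83% higher and 7.31% lower. Without a term for the horse the same count of 6 was called higher, where 5.59% of all genes were. The treated libraries lay wholly above the untreated ones in 6 of the 10 genes, against 13.9% of all genes tested, and 9 of the 10 were higher in all 4 horses, against 26.3%. The median log2 fold change was 1.26 for the 10 genes and 0.0055 for all genes. With libraries scaled to equal totals, the median of all genes moved by -0.31 on the log2 scale, and 5 of the 10 genes were called, TPM2 dropping out with a log2 fold change of 0.88. The call split over all genes was then 27.6% higher, against 48.3% under the deposited scaling.

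**Figure D1:**
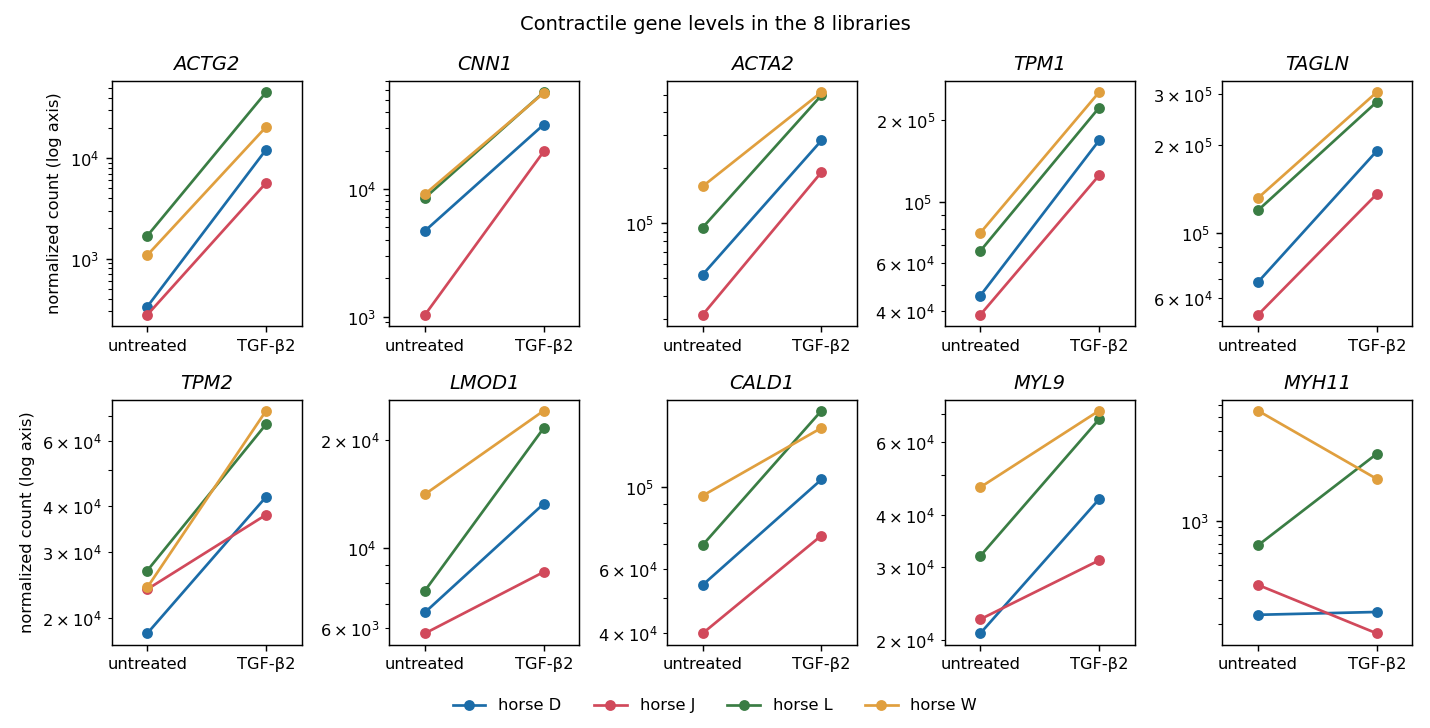
Normalized count (log axis, a separate range in each panel) of each contractile gene in the untreated and the TGF-β2-treated library of horses D, J, L and W, joined by horse. Lines rise in all 4 horses in 9 panels, and in the MYH11 panel horse W falls from 5511 to 1909 while horse L rises from 680 to 2820.

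The smooth muscle actins had the first and the third largest fold changes of the group. ACTG2, the enteric smooth muscle γ-actin, was scarce without treatment, with 332, 275, 1685 and 1082 normalized counts in horses D, J, L and W. The treated libraries held 12160, 5679, 45362 and 20478, the lowest of them above the highest untreated one. The log2 fold change of ACTG2 was 4.64 (standard error 0.17, adjusted p from limma 0.000651), equal to 24.9-fold, and it ranked 62 among the 14907 genes tested. The rise ran from 18.9-fold in horse W to 36.5-fold in horse D. ACTA2, the vascular smooth muscle α-actin used as the marker of myofibroblasts, was already abundant in untreated cells, with 52388, 31682, 94511 and 158391 normalized counts. In treated cells it had 281471, 189165, 495352 and 515281. The groups did not overlap, although the untreated library of W came close to the treated one of J. The log2 fold change of ACTA2 was 2.27 (standard error 0.21, adjusted p from limma 0.00269), from 1.70 in horse W to 2.58 in horse J. The muscle actin genes are alike in sequence, and only reads with a single best place were counted. How well the reads of ACTA2, ACTG2 and ACTA1 were told apart was not tested.

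CNN1 and TAGLN encode calponin and transgelin, related actin-binding proteins that are standard markers of the smooth muscle lineage. CNN1 had 4694, 1032, 8521 and 9118 normalized counts in the untreated libraries of D, J, L and W. After treatment it had 31965, 19693, 57296 and 56540, without overlap. The untreated library of J was the lowest by far, and horse J also had the largest rise, 19.1-fold against 6.20-fold to 6.81-fold in the other horses. The log2 fold change of CNN1 was 3.10 (standard error 0.29, adjusted p from limma 0.00280), and it was still called with J left out. TAGLN had 68028, 52562, 119754 and 131980 normalized counts without and 191209, 136189, 281515 and 303935 with TGF-β2. Its rise was alike in the 4 horses, from 2.30-fold to 2.81-fold, and the groups were separated by a narrow gap between W untreated and J treated. The log2 fold change of TAGLN was 1.33 (standard error 0.16, adjusted p from limma 0.00444).

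Tropomyosins are coiled-coil dimers that lie along the actin filament and govern access of myosin. TPM1 had 45607, 38824, 66373 and 77255 normalized counts in untreated cells of D, J, L and W and 167989, 125320, 221163 and 251866 in treated cells. Its change was the most even of the group, 3.23-fold to 3.68-fold, and the groups did not overlap. TPM1 changed by 1.75 on the log2 scale (standard error 0.14, adjusted p from limma 0.00177). TPM2 had similar untreated levels in the 4 horses, 18156, 23869, 26801 and 24139 normalized counts, and 42350, 37895, 66449 and 72253 after treatment. It rose least in J, by 1.59-fold, and most in W, by 2.99-fold. TPM2 changed by 1.20 on the log2 scale (standard error 0.17, adjusted p from limma 0.00710).

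CALD1, MYL9 and LMOD1 passed the adjusted p of the test but stayed under the fold threshold, so they were not called. CALD1, which encodes caldesmon, an inhibitor of the actin-activated myosin ATPase, had 54129, 39937, 69571 and 94918 normalized counts in untreated libraries of D, J, L and W and 105104, 73895, 162021 and 145368 in treated ones. Its log2 fold change was 0.92 (standard error 0.15, adjusted p from limma 0.0111). MYL9, the regulatory myosin light chain of smooth muscle, had 20721, 22407, 31837 and 46621 normalized counts without and 43649, 31083, 68020 and 71327 with treatment. These groups overlapped as well, and the log2 fold change of MYL9 was 0.81 (standard error 0.15, adjusted p from limma 0.0149). LMOD1, leiomodin 1, which starts new actin filaments in smooth muscle, had 6640, 5806, 7630 and 14137 normalized counts in untreated and 13313, 8601, 21613 and 24136 in treated cells. The log2 fold change of LMOD1 was 0.96 (standard error 0.17, adjusted p from limma 0.0118), with 1.48-fold in J and 2.83-fold in L. All 3 genes were higher in each of the 4 horses, and in all 3 the untreated library of W exceeded the treated library of J. Without the term for the horse their adjusted p from limma was 0.0814 for CALD1, 0.124 for MYL9 and 0.107 for LMOD1. Without J the log2 fold change of LMOD1 was 1.09, and without W that of CALD1 was 1.02, so that 7 of the 10 genes were called in each of these fits.

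MYH11, the myosin heavy chain of mature smooth muscle, did not pass the test. It had 231, 368, 680 and 5511 normalized counts in the untreated libraries of D, J, L and W, and 242, 173, 2820 and 1909 in the treated ones. The treated level was 4.14 times the untreated one in L and 1.04 times in D, and in J and W the treated library held 0.472 and 0.347 of the untreated level. The log2 fold change was -0.12 (standard error 0.59, 95% interval -1.59 to 1.34, adjusted p from limma 0.891), and the interval leaves room for a change of more than 1 either way. The untreated library of W stood far above the other 3. Without horse W, J, D or L the log2 fold change was 0.34, 0.19, -0.19 or -0.85, with adjusted p from limma of 0.739, 0.830, 0.886 and 0.141. The untreated library of W also had the highest summed level of pericyte markers, 60684 normalized counts over 7 genes against 28024 to 54878 in the other untreated libraries, of which PDGFRB made up 45945. PDGFRB, NOTCH3 and CD248 were highest there, and the other 4 markers were not, among them RGS5 with 94.4 against 151 in D and CSPG4 with 2661 against 6549 in L. That library also had the highest untreated level of KCNMB1, a potassium channel subunit of smooth muscle, 1187 against 219 to 381. Other smooth muscle genes were highest there too, among them MYLK, 7478 against 1124 to 2792, and SMTN, 17216 against 5593 to 11135. Others were not, among them CACNA1C, EDNRA and PPP1R14A, whose highest untreated level was in L. The part of such cells or markers in the level of MYH11 was not tested. With 1 library per horse and group, a difference between horses in the response cannot be tested.

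**Figure D2:**
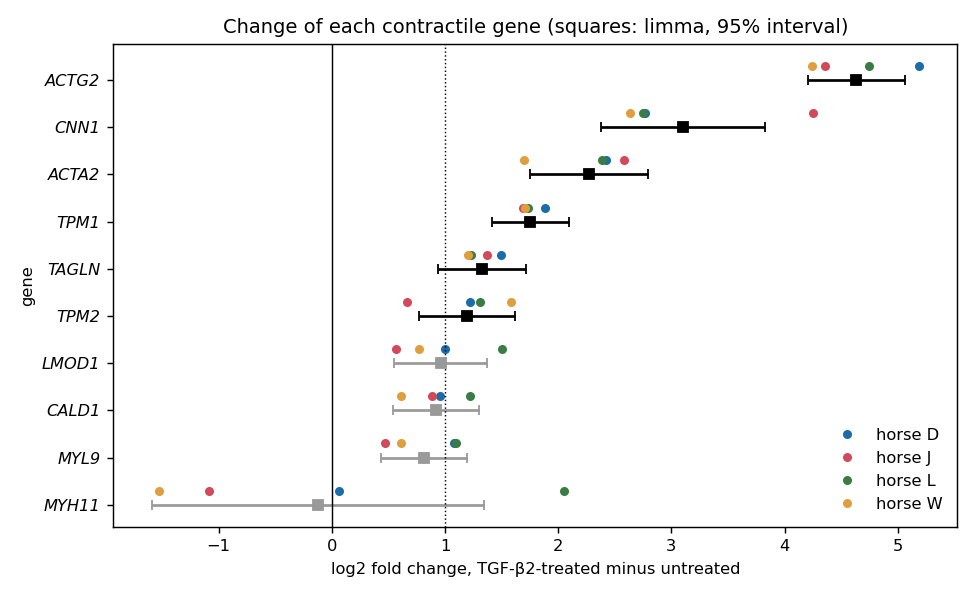
Log2 fold change (TGF-β2-treated minus untreated) of each contractile gene. Squares with bars give the limma value with its 95% interval, black where called and grey where not, coloured points give the 4 horses, and the dotted line marks the fold threshold of 1. ACTG2 lies at 4.64 and MYH11 at -0.12 with points on both sides of 0.

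The genes were thus spread over a wide range of change, and neighbours in the order were compared within horses. The order was taken from these same changes, so the direction of each mean difference was fixed beforehand. ACTG2 exceeded CNN1 in all 4 horses, by 1.54 ± 1.01 on the log2 scale (SD, n = 4), but by only 0.11 in horse J. CNN1 exceeded ACTA2 in all 4 horses, by 0.83 ± 0.63, and TPM1 exceeded TAGLN in all 4, by 0.43 ± 0.09. TPM1 and ACTA2 had nearly the same change in horse W. Of the 9 neighbour pairs compared, these 3 kept 1 direction in all horses, and an exact two-sided sign-flip test gave the smallest p that 4 horses allow for each, which was 0.375 after adjustment over the 9 pairs. TAGLN, TPM2, LMOD1, CALD1 and MYL9 followed each other with mean differences of 0.04 to 0.23, smaller than their SD between horses.

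The horses kept much of their order. Horse J had the lowest level of 7 of the 10 genes in untreated cells and of all 10 in treated cells. Horse W had the highest untreated level of 8 genes, and in treated cells the highest level lay in W for 6 genes and in L for 4. The full order J, D, L, W held for 6 genes without and for 6 with treatment, but these were not the same genes. ACTA2, TAGLN, TPM1 and LMOD1 kept it in both. The 10 genes are not independent of each other, and such orders were not counted over all genes. For ACTA2 the ratio of the highest to the lowest horse was 5.00 in untreated and 2.72 in treated cells, and for CNN1 it was 8.83 and 2.91, whereas for TPM1 it was 1.99 and 2.01. These ratios were not tested. The standard error of ACTA2 was 0.21 with the horse as a block and 0.54 without it, and that of ACTG2 was 0.17 and 0.76. The low untreated levels of horse J stood beside the levels of CD68, CD3E and PTPRC in that library given above, and its part in them was not tested. With J left out, all 6 called genes were called.

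Genes of the group were also set against related genes in the same library, which needs no scaling between libraries. Reads were counted per gene, so splice forms of a gene, such as those of the tropomyosins, were not told apart. Reads were not divided by transcript length, so these are shares of reads and not of molecules. ACTA2 took 8.93%, 4.76%, 16.5% and 23.3% of the reads of ACTA2 and the cytoplasmic actins ACTB and ACTG1 in untreated cells of D, J, L and W. In treated cells the share was 27.8%, 20.6%, 44.7% and 46.9%. It was higher in every treated culture than in its untreated pair, while the groups overlapped between W untreated and J treated. ACTG2 took 0.043% to 0.352% of the reads beside ACTB and ACTG1 in untreated and 0.772% to 6.90% in treated libraries. For CNN1 beside CNN2 and CNN3 the share was 19.9% ± 11.3 in untreated and 55.2% ± 11.2 in treated cells (SD, n = 4). TPM1 took 29.8% to 42.1% of the reads beside TPM3 and TPM4 in untreated and 48.9% to 62.4% in treated libraries, with a log2 difference between 1.10 and 1.19 in each horse. TPM2 went from 18.9% ± 1.74 to 26.2% ± 5.21. These 5 shares were all higher in each of the 4 horses. The exact two-sided permutation test of 4 libraries against 4 gave p = 0.0286, its smallest possible value, for ACTG2, CNN1, TPM1 and TPM2, and p = 0.0571 for ACTA2. Adjusted over the 7 shares these became 0.05 and 0.08, neither under 0.05. Paired by horse, an exact sign-flip test gave its smallest possible value for each of these 5 shares, with an adjusted p of 0.146.

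TAGLN already outnumbered TAGLN2, its widely expressed relative, in untreated cells, with 56.8% to 84.6% of their joint reads, against 81.1% to 93.9% in treated cells. The share was higher after treatment in all 4 horses, with a mean log2 difference of 1.42 (0.82 to 1.70), and the exact sign-flip test gave its smallest possible value (adjusted p = 0.146). Unpaired, the groups overlapped and the exact permutation test gave p = 0.171 (adjusted p = 0.20). MYH11 took 0.184%, 0.382%, 0.431% and 3.32% of the reads beside MYH9 and MYH10 in untreated and 0.142%, 0.126%, 1.05% and 0.980% in treated cells of D, J, L and W, with an exact permutation p of 0.60 (adjusted p = 0.60). In both groups the heavy chain reads were thus almost wholly those of the non-muscle genes. MYL9 was not set against its non-muscle relatives, which were not analysed here.

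**Figure D3:**
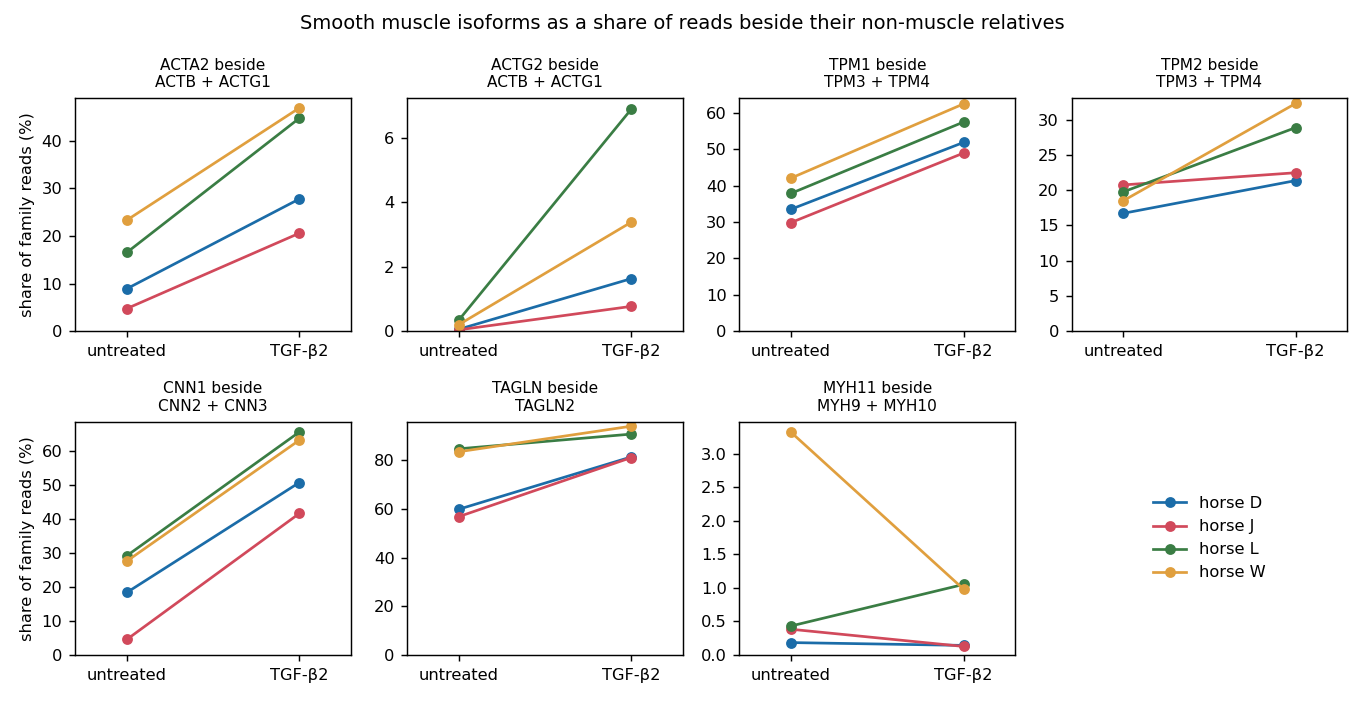
Share of reads (%, each panel from 0 with its own range) of a contractile gene beside the named related genes, in the untreated and the TGF-β2-treated library of each horse. Splice forms of a gene are not told apart. The ACTA2 share lies between 4.76% and 23.3% in untreated and between 20.6% and 46.9% in treated libraries, and the MYH11 share is highest in W untreated, at 3.32%.

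Relatives of the contractile genes were followed in lists given by name. The counts of calls in this and the later lists stand beside 6.83% called higher and 7.31% called lower over all genes tested. The cytoplasmic actins ACTB and ACTG1, building blocks of every cell's cytoskeleton, did not pass the test, with log2 fold changes of 0.35 and 0.23 (adjusted p from limma 0.279 and 0.408), and the value of ACTG1 turned to -0.08 under total scaling. ACTA1, the skeletal muscle α-actin, was called higher with 6.96 to 28.4 normalized counts in untreated and 46.0 to 1904 in treated libraries (adjusted p from limma 0.0160), but not with D or with W left out. Among 10 other tropomyosins, calponins, transgelins and tropomodulins tested, 1 was called higher and 0 lower. It was TAGLN3, with a log2 fold change of 1.09 (adjusted p from limma 0.0120), which was not called under total scaling or with J or W left out. TPM4, CNN2 and CNN3 passed the adjusted p but not the fold threshold, with log2 fold changes of 0.65, 0.52 and 0.45, and so did the filament-capping tropomodulins TMOD2 and TMOD3, with -0.75 and -0.46 (adjusted p from limma 0.0241 and 0.0215). TMOD2 was called lower under total scaling, at -1.06. Of 5 non-muscle myosin II and light chain genes, 1 was called. It was MYH14, with 200 normalized counts on average in untreated and 533 in treated cells (adjusted p from limma 0.0344), and it was not called with L or with W left out. MYH9 and MYH10, the main non-muscle heavy chains, had log2 fold changes of 0.46 and 0.85 (adjusted p from limma 0.0838 and 0.0404).

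Of 16 genes that set the phosphorylation of the myosin light chain, 2 were called higher and 0 lower, and the median log2 fold change of the list was 0.053. MYLK, the light chain kinase itself, had 2314, 1124, 2792 and 7478 normalized counts in untreated cells of D, J, L and W and 1685, 2059, 3132 and 5631 in treated cells. It was higher after treatment in J and L and lower in D and W, with a log2 fold change of 0.04 (adjusted p from limma 0.907), and the sign turned under total scaling and with J left out. DAPK3, a kinase that can act on the light chain and its phosphatase, was called, its level being 3280 ± 621 normalized counts without and 7654 ± 818 with TGF-β2 (SD, n = 4, adjusted p from limma 0.00210). Under total scaling the log2 fold change of DAPK3 was 0.93, short of a call. PPP1R14A, the inhibitor CPI-17 of the myosin phosphatase, had 176 to 454 normalized counts in untreated and 386 to 1193 in treated libraries, which overlapped (adjusted p from limma 0.0389), and its call was lost with D, L or W left out and under total scaling. PPP1R12A, the targeting subunit of that phosphatase, had a log2 fold change of 0.56 (adjusted p from limma 0.0111), and RHOB, a small GTPase, of -0.78 (adjusted p from limma 0.00755), so that neither was called.

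Among 30 genes of dense plaques, Z-discs and intermediate filaments, through which smooth muscle filaments are anchored, 8 were called higher and 1 lower, and the median log2 fold change was 0.56. DES, the muscle intermediate filament protein desmin, was near the floor in untreated cells, with 0.870, 3.37, 7.54 and 3.04 normalized counts in D, J, L and W, and had 90.5, 22.5, 222 and 137 in treated cells (adjusted p from limma 0.00531). The lowest treated library was above the highest untreated one. DES met the filter on low values through its treated libraries only, so its call lends no weight to the count of this list. PDLIM3, a muscle PDZ-LIM protein, had 0 to 16.8 normalized counts in untreated and 76.2 to 117 in treated libraries (adjusted p from limma 0.00656). With 1 untreated library at the minimum of that filter, its call lends no weight to the count either. ACTN1, the α-actinin that cross-links actin filaments, rose by 1.67 on the log2 scale, its level being 25692 ± 2848 normalized counts without and 86191 ± 32578 with TGF-β2 (SD, n = 4, adjusted p from limma 0.00885). The muscle filamin FLNC had a log2 fold change of 1.98 (adjusted p from limma 0.00693) and the actin-filament protein NEXN of 2.03 (adjusted p from limma 0.00934). The LIM protein CSRP2 had one of 3.43 (adjusted p from limma 0.0160) and the PDZ-LIM protein PDLIM7 one of 1.13 (adjusted p from limma 0.00202). With W left out ACTN1, NEXN and CSRP2 were not called, with D left out ACTN1 and CSRP2 were not, and under total scaling PDLIM7 was not. CSRP1, a LIM protein of smooth muscle, was just short of the fold threshold at 0.91 (adjusted p from limma 0.00291). FHL1, another LIM protein of muscle, fell by 2.37 on the log2 scale, its level being 13082 ± 4974 normalized counts without and 2629 ± 1501 with TGF-β2 (adjusted p from limma 0.00841), and was lower in all 4 horses. SMTN, which encodes the smooth muscle protein smoothelin, had a log2 fold change of -0.18 (adjusted p from limma 0.324).

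**Figure D4:**
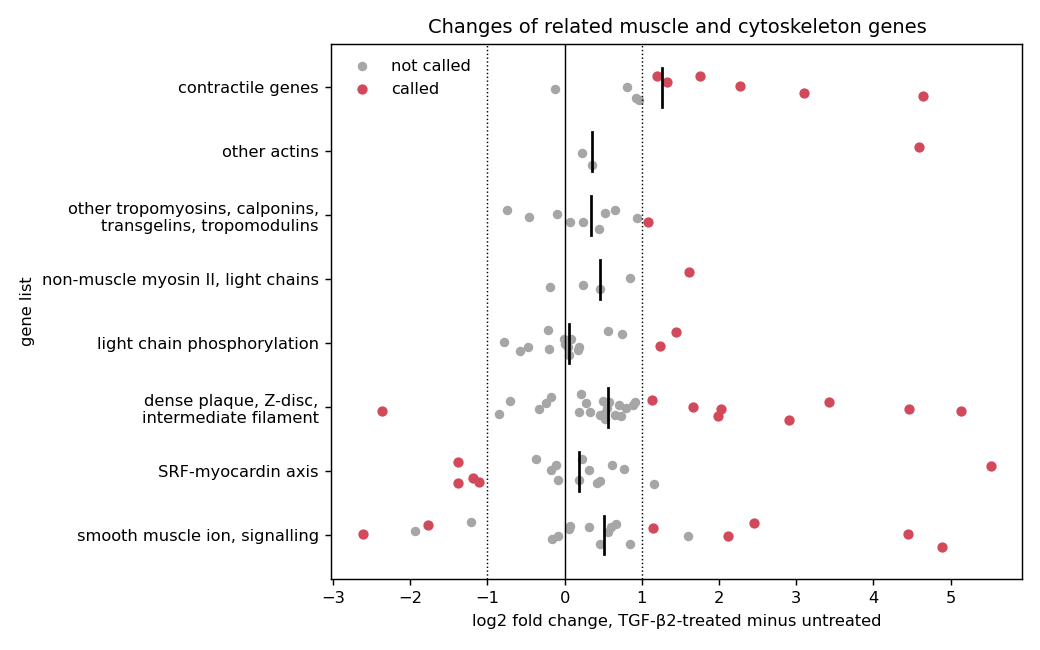
Log2 fold change (TGF-β2-treated minus untreated) of each gene tested in the contractile group and the related lists, 1 row per list. Red points are called and grey ones not called, black ticks mark the median of each list and dotted lines the fold threshold, and vertical scatter within a row carries no value. The contractile row has 6 red points up to 4.64, while the row of light chain phosphorylation has 2 of 16.

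Of 17 genes listed with the SRF and myocardin axis, 1 was called higher and 4 lower, and SRF and its coactivators were not among them. SRF itself had 3477, 3011, 3656 and 4648 normalized counts in untreated and 6225, 5685, 6456 and 6686 in treated cells of D, J, L and W. These groups did not overlap, yet the log2 fold change of 0.78 (standard error 0.09, adjusted p from limma 0.00480) was under the fold threshold. MYOCD, the smooth muscle coactivator myocardin, was low, with 65.3 to 80.2 normalized counts in untreated libraries and 181, 41.8, 535 and 174 in treated cells of D, J, L and W. It was higher in D, L and W and lower in J, and did not pass the test (log2 fold change 1.16, adjusted p from limma 0.157). MYOCD was called with J left out, at a log2 fold change of 1.76, and by DESeq2 without a term for the horse. MKL1 and MKL2, the myocardin-related coactivators, had log2 fold changes of 0.42 and -0.08 (adjusted p from limma 0.115 and 0.753). GATA6, a transcription factor of vascular smooth muscle, rose from 24.4, 121, 5.65 and 20.3 to 1476, 1278, 1084 and 955 normalized counts (adjusted p from limma 0.00392). KLF4 and KLF5, Krüppel-like factors, of which KLF4 is known as a repressor of smooth muscle genes, were called lower, with log2 fold changes of -1.38 and -1.11 (adjusted p from limma 0.00403 and 0.0220). PRRX1, a mesenchymal homeobox factor, was called at -1.19 (adjusted p from limma 0.0119) and HEY1, a target of Notch signalling, at -1.37 (adjusted p from limma 0.0405). KLF5, PRRX1 and HEY1 were not called with D or with W left out, nor was HEY1 with J left out.

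Of 20 channel, receptor and signalling genes of smooth muscle tested, 5 were called higher and 2 lower. TBXA2R, the receptor for the constrictor thromboxane, had 60.0, 26.3, 71.6 and 58.8 normalized counts in untreated and 1367, 475, 3553 and 2404 in treated cells of D, J, L and W, a log2 fold change of 4.89 (standard error 0.28, adjusted p from limma 0.00121). RYR2, a calcium release channel best known from the heart, had 2.02 to 41.6 normalized counts in untreated and 103 to 802 in treated libraries (adjusted p from limma 0.00402). KCNMB1 had 219 to 1187 in untreated and 496 to 3514 in treated libraries (adjusted p from limma 0.0133), and was not called without the term for the horse or with D left out. CACNA1C, the pore of the L-type calcium channel, was called at 1.15 (adjusted p from limma 0.0278), but it lost the call with any 1 horse left out. ITGA5, the fibronectin receptor subunit, rose from 17936 ± 2590 to 99379 ± 20586 normalized counts (SD, n = 4, adjusted p from limma 0.00100). EDNRA and EDNRB, the receptors of endothelin, were called lower at -1.77 and -2.61 (adjusted p from limma 0.0174 and 0.00882). Both lost the call with W left out, EDNRA also with D or L left out, and EDNRB without the term for the horse.

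Markers of other cells that hold contractile proteins were followed in the same way. Of 7 pericyte markers tested, 0 were called higher and 2 lower, MCAM and CD248, and the summed level was 28024 to 60684 normalized counts in untreated and 29046 to 30158 in treated libraries. MCAM had a log2 fold change of -1.17 and CD248 of -1.26 (adjusted p from limma 0.0431 and 0.0179), and both lost the call without the term for the horse and with D, L or W left out. Of 7 skeletal and cardiac markers tested, 2 were called higher, NEB with 0 to 5.07 normalized counts in untreated and 97.7 to 361 in treated libraries, and NKX2-5 with 0 to 0.870 and 10.7 to 42.5 (adjusted p from limma 0.00442 and 0.00377). Like DES, both reached the minimum of the filter on low values in treated libraries only. They were thus tested because they were high there, and their calls lend no weight to the counts of their lists. PDLIM3 and KDR had 1 untreated library at that minimum. They too passed the filter through their treated libraries, and their calls likewise lend no weight to the counts of their lists. The skeletal and cardiac list summed to 108 to 175 normalized counts in untreated and 267 to 741 in treated libraries. The treated sums include the 97.7 to 361 normalized counts of NEB, so these sums lend no weight either. Of 3 endothelial markers tested, KDR and ERG were called higher, KDR from 1.01 to 14.8 to 15.5 to 40.7 normalized counts and ERG from 25.4 to 368 to 471 to 928 (adjusted p from limma 0.0109 and 0.0180), with a list sum of 32.5 to 395 in untreated and 501 to 966 in treated libraries. KDR lost the call with D left out and ERG with D, L or W left out. Of 5 leukocyte markers tested, ITGB2 was called lower at -1.48 (adjusted p from limma 0.0347), and it lost the call with D, L or W left out and without the term for the horse. The lists held 10 endothelial and 28 skeletal and cardiac genes, so most of each list was not tested. The defining endothelial genes PECAM1 and VWF and the skeletal muscle regulators MYOD1 and MYOG were among those not analysed here. The part of such cells in the levels of the contractile genes was not tested.

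Outside these lists, the genes whose levels ran most like those of the contractile group were sought by Pearson's r over the 8 libraries with the mean z-score of the 10 genes. The 5 with the highest r were TAF5L (0.992), LOC106780946 (0.991), YIPF2 (0.986), LOX (0.982) and UPK3B (0.981). LOX encodes lysyl oxidase, the enzyme that cross-links collagen and elastin, and had 22513, 12861, 39519 and 43018 normalized counts in untreated and 54883, 38791, 110656 and 112538 in treated cells of D, J, L and W. TAF5L, a subunit of a transcriptional coactivator complex, had a log2 fold change of 1.46 and YIPF2 of 0.46 (adjusted p from limma 0.00426 and 0.0102). UPK3B, a uroplakin, had one of 3.19 (adjusted p from limma 0.000972). LOX and UPK3B were not called without the term for the horse. The points share their libraries, and group and horse both enter r. The mean z-score was higher in each treated library than in its untreated pair, so the choice favoured genes that rose with treatment. The fold changes and p-values of the chosen genes describe them and are no separate support. After the mean of each horse was subtracted, the 5 highest were JPH2, MIR8917, ITGB1BP2, RC3H2 and RAVER1, each with r of at least 0.998, and none of the first 5 was among them. The paired values of a horse are then mirror images, so this r rests on 4 changes. A rise of even size in all horses is enough to make it high. Over the 8 libraries, without the subtraction, r of these genes was 0.945, 0.252, 0.944, 0.615 and -0.174.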

How the data were processed

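The 8 libraries were RNA-seq of paired cultures of 4 horses, without and with TGF-β2. Per the sources, the authors used Trimmomatic 0.36 for trimming of poly(A)-selected reads and STAR 2.5.2b for alignment to EquCab 3.0, counted unique hits with featureCounts (Subread 1.5.2) and used DESeq2. They deposited normalized counts, a signal of reads divided by a size factor per library, for 15266 named genes. A row without a name, 0.0281% to 0.0531% of the signal, was left out.

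The value of 1 read was found in each library as the step of the low values, and 100% of the values were whole within 1e-06. Genes that reached 10 normalized counts in 4 or more libraries were tested with limma 3.58.1 in R 4.3.3 (eBayes with trend) on log2(normalized count + 1), which understates changes of low genes. The horse was a block: samples come from the same horse, and their deviations from the group means correlated at 0.386 to 0.609. The study's methods name no such term, so the fit without it is an alternative, as are edgeR 4.0.16 and DESeq2 1.42.0 on the recovered reads. Named genes were the 10 contractile genes, genes of lists by function and cell type, and the 5 most similar genes. One item covered by these lists is not reported here. Genes and lists were chosen with earlier results of these data known. The procedure was tested on simulated data. Coordinates are not given, since no annotation of EquCab 3.0 was used here.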

Additional observations from a re-analysis of the deposited data

Results flagged for a closer look

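Single libraries stood apart from the other 3 of their group by Dixon's test in 11 of 168 groups examined. Chance alone gives about 1 in 20 for independent normal values, so this count was near chance. The values were not log-transformed and the groups share libraries, so that rate is only a guide. MYH11 had 5511 normalized counts in the untreated library of W, which also held the outlying MYH11 share of 3.32% of heavy chain reads and 1187 normalized counts of KCNMB1. In the untreated library of J, TPM3 (13795 normalized counts), CD68 (2437) and GATA6 (121) were high and MYH10 (4518) was low. In the treated library of L, FLNC (33626) and NEB (361) were high, and in its untreated library ITGA5 (21799.5). NKX2-5 had 0.870 normalized counts, 1 read, in the untreated library of D and 0 in the other untreated libraries.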

How the results depend on the processing

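The 10 contractile genes gave 6 calls in the fit with the horse as a block, and 6 without that block, with pseudocounts of 0.5 and 5, without a filter, with a filter at 50, with upper-quartile and TMM scaling, without a trend, with edgeR, with DESeq2 with and without the horse, and at an adjusted p under 0.01. Total scaling gave 5, no fold threshold 9, and leaving out 1 horse 6 to 7. The count of all genes called was 2108 with the block and 1709 without the block, 1689 of them shared, and edgeR called 2059. An adjusted p under 0.01 gave 1116 and no fold threshold 4610, by their construction. Leaving out 1 horse gave 1080 (without W) to 2442 (without J), with 1173 without D, where fewer libraries entered. Of the 37 called genes named outside the contractile group, 23 were called in every alternative with 4 horses at the same thresholds and 14 also with each horse left out. Among the 14 were DES, NEB, NKX2-5 and PDLIM3, which met the filter on low values through their treated libraries, as did KDR among the 23. TAF5L and LOC106780946, chosen by r over the same libraries, were also among the 14. The place of all these genes in the counts lends no support. Signs turned only in genes that did not pass the test. Under total scaling the log2 fold change was -0.083 for ACTG1, -0.24 for TPM3 and -0.27 for MYLK, and DESeq2 without the horse gave -0.13 for MYLK. With 1 horse left out it ran from -0.058 to 0.16 for TPM3, from -0.23 to 0.21 for MYLK, from -0.27 to 0.0089 for TAGLN2, from -0.26 to 0.062 for MKL2, from -0.77 to 0.21 for RGS5 and from -0.85 to 0.34 for MYH11. The cause was not tested. With 4 horses, the sign-flip test of the shares cannot pass the threshold.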
